A study of Mus musculus with 7 samples.

Results

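The 7 genes of the creatine system were read in 7 tissues of the mouse: Gatm and Gamt, which make creatine, Slc6a8, which carries it into cells, and the creatine kinases Ckm, Ckb, Ckmt1 and Ckmt2. They were chosen by name for their roles in the pathway, and all 7 were found among 50354 gene names in the deposited table. Of the 50226 names with a usable locus, 21341 were protein-coding. The libraries came from skeletal muscle, brain cortex, kidney and liver and from 3 fat depots: brown fat (BAT), visceral fat (VAT) and subcutaneous fat (SCAT). The mice were wild type, of the strain C57BL/6 in the labels and C57BL/6N in the study's text, 36 weeks old and fed the diet labelled NCD, and carried no transgene or treatment that the labels name. Each tissue is represented by 1 library, so a difference between tissues has no replicate check and no test was made. The labels do not say whether a library holds 1 mouse or several, nor whether the 7 tissues came from the same mice.

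Creatine is made in a pair of steps. Gatm (arginine:glycine amidinotransferase, AGAT) joins a group from arginine to glycine and gives guanidinoacetate, and Gamt (guanidinoacetate methyltransferase) methylates that product with S-adenosylmethionine. The kidney is known for the first step and the liver for the second, and tissues that use creatine take it up from blood through the sodium-dependent transporter Slc6a8. Creatine kinases pass a phosphoryl group between ATP and creatine. Ckm (M type) and Ckb (B type) act in the cytosol, whereas Ckmt1 (ubiquitous) and Ckmt2 (sarcomeric) sit between the mitochondrial membranes. In muscle and brain the phosphocreatine so formed buffers ATP where it is used fast, and in brown fat creatine has been tied to heat production.

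Levels are given as FPKM, the fragments of a gene divided by transcript length and by library size, which puts genes of different length on one scale. Differences are given on the scale log2(FPKM + 0.1), which understates the difference of low values. A gene was called enriched in a tissue where it had at least 1 FPKM and a value at least 2 on that scale, or 4-fold, above every other tissue with a value. Fragment counts are not part of the table, so depth is unknown and a single FPKM has no interval. In such whole-tissue libraries, fewer cells of a type and less RNA per cell cannot be told apart.

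The labelled tissues were checked against marker genes. The liver library held 3 of 4 hepatocyte markers as enriched genes, Alb having no value there. The kidney library held all 8 of 8 tubule markers as enriched genes, the cortex library 4 of 4 neuron markers, and BAT had 6552 FPKM of Ucp1, the uncoupling protein of brown adipocytes. Of the other brown adipocyte markers, Dio2 stayed at or below 0.387 FPKM in every library. Skeletal muscle had the highest level of each of the 5 skeletal muscle markers with a value there. Some libraries also carried markers of other tissues. In SCAT, 7 of 7 pancreatic acinar markers (summed 142 FPKM) and 5 of 5 lymphocyte markers (summed 113 FPKM) were enriched. In VAT, 4 of 5 epididymis markers were enriched, with a sum of 2645 FPKM, and the hepatocyte markers Apoa1, Ttr and Fgb stood at 0.559 to 0.8504% of their liver level. Alb, the fourth of that list, had 252.7 FPKM in VAT, its highest level in a library with a value. Skeletal muscle markers reached a sum of 762 FPKM in BAT, 78.5 in SCAT and 72.8 in VAT, against 28276 in skeletal muscle, where Myh4 of that list has no value. In SCAT, Tnnt3 alone made up 70.2 FPKM of that sum, and the other 5 markers were each lower in SCAT than in VAT.

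Of the 7 creatine genes, 5 were enriched in 1 tissue: Gatm in kidney, Ckb and Ckmt1 in cortex, and Ckm and Ckmt2 in skeletal muscle. By the same rule, 21.4% of the 14928 protein-coding genes that reached 1 FPKM anywhere were enriched in some tissue. The share was 2.49% for kidney, 8.21% for cortex and 3.38% for skeletal muscle, 3.39% for liver, and from 0.757% to 1.93% for the fat depots (BAT 0.757%, VAT 1.21%, SCAT 1.93%), none of which led for a member. The median distance of the highest tissue from the next was 3.28 (log2) over the 7 members and 0.68 over all genes tested. Since the members were chosen with earlier results of these data known, these counts and medians are a description. Gamt, highest in liver, and Slc6a8, highest in skeletal muscle, did not meet the rule. By another rule, a tissue specificity index tau of at least 0.85, 0 of the 7 members and 8.53% of protein-coding genes passed.

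**Figure D1:**
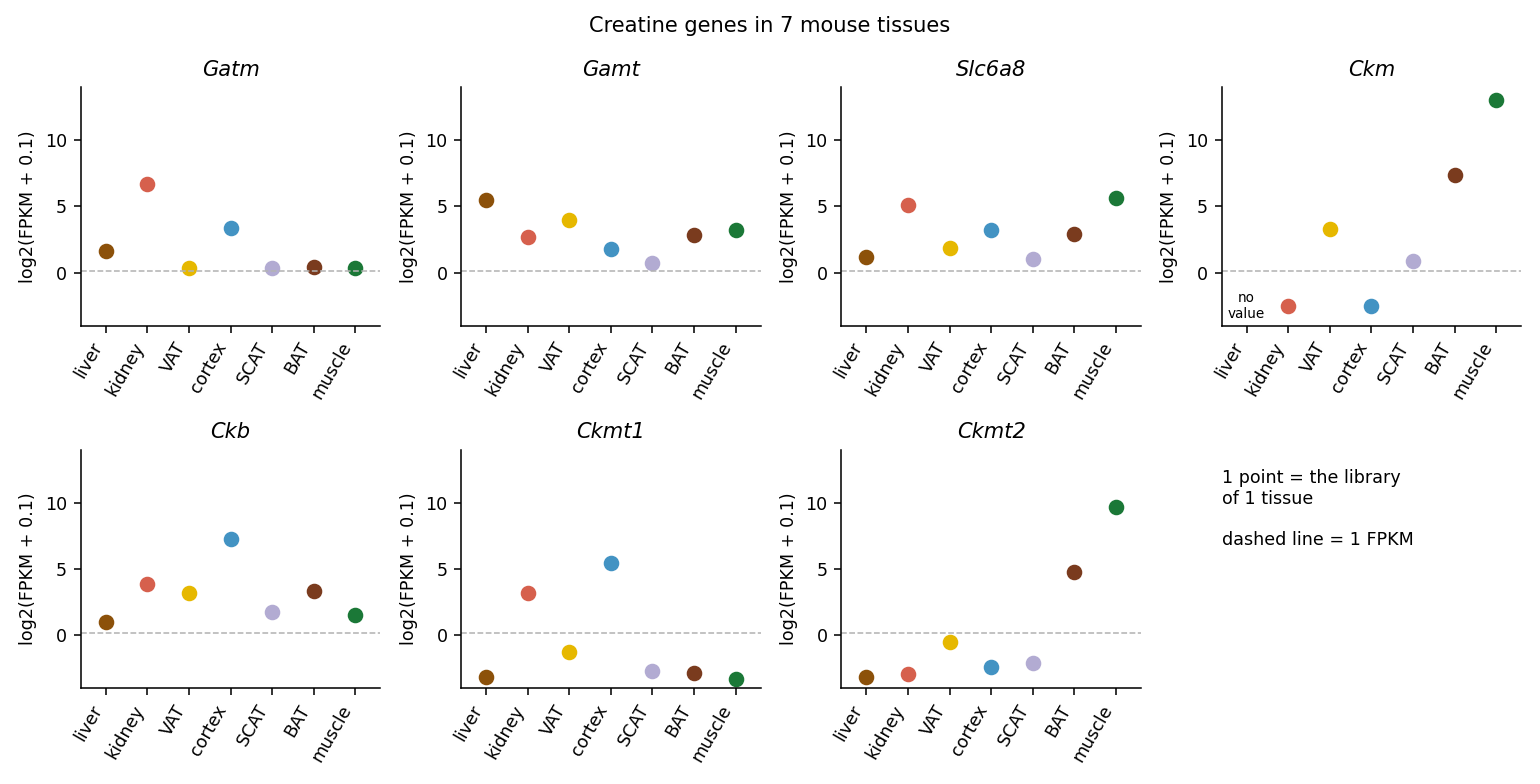
Level of each creatine gene in the 7 tissues, as log2(FPKM + 0.1). Each point is the single library of a tissue, the dashed line marks 1 FPKM, and Ckm has no value in liver. Gatm stands out in kidney, Ckb and Ckmt1 in cortex with kidney next, and Ckm and Ckmt2 in skeletal muscle with BAT next.

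Ckm, Ckmt2 and Ckb are shown with the sequence before their RefSeq start site, since Ckm and Ckmt2 shared their highest 4 tissues in order and Ckb had its highest level in another tissue. The windows hold up to 250 bases 5′ of the start, on the gene's own strand of GRCm38.p6. Capitals mark matches, on either strand, to 4 short motifs. The first is the E-box, spelled CANNTG, the core bound by muscle regulatory factors among many others. The core promoter motif that lies near many start sites was searched as TATAAA. The motif read by the factor NF-Y was searched as CCAAT, and the GC box read by Sp1 and its relatives as GGGCGG.
Ckm, chr7:19410844-19411024, plus strand: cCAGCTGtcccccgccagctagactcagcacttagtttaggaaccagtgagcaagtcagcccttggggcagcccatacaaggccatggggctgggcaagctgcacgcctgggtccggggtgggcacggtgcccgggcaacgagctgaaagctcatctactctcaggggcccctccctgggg
Ckmt2, chr13:91876886-91877135, minus strand: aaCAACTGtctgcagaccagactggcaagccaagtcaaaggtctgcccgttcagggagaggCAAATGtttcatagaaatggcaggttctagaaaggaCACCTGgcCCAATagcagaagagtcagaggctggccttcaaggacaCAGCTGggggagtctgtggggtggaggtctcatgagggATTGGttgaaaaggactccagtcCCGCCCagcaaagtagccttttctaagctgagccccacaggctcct
Ckb, chr12:111672339-111672588, minus strand: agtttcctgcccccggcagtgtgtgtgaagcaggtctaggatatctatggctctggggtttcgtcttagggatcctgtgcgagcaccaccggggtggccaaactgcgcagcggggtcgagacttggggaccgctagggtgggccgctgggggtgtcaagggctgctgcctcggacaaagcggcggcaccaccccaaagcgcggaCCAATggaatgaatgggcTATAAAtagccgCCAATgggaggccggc
The last 69 bases before the Ckm start are not shown because they reach an annotated exon. Over the full window of 250 bases, Ckmt2 held 4 E-boxes, 2 CCAAT boxes and 1 GC box, and Ckm held 1 E-box, CAGCTG at positions -249 to -244. The 69 bases of Ckm that are not shown hold tatataa, which the spelling TATAAA does not match. A missing match is thus not the absence of a related motif. Ckb held a TATAAA at positions -28 to -23 between a pair of CCAAT boxes and no E-box. Among 32851 RefSeq promoters of that length, 66.2% held an E-box, 12.4% a TATA box, 33.8% a CCAAT box and 32.7% a GC box, so an E-box in a window is the common case. The CpG count was 2 for Ckmt2, 6 for Ckm and 16 for Ckb, against a median of 6. The windows of Gatm (17 CpGs, 1 E-box and 2 CCAAT boxes) and Gamt (12 CpGs, 3 GC boxes) were also above that median. Of the 2 windows of Ckmt1, the first was below it, with 4 CpGs and a TATAAA match on the other strand. The second was above it, with 9 CpGs and 1 CCAAT box. A match is a string of letters, and its use by a factor was not measured.

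Gatm, the first and rate-setting enzyme of creatine synthesis, lies on chromosome 2 of GRCm38 (122594467 to 122611303, minus strand). It had 101.8 FPKM in kidney, 10.4 in cortex and 2.98 in liver. The remaining tissues lay between 1.17 FPKM in SCAT and 1.26 in BAT. Kidney thus stood 3.28 (log2) above cortex, and cortex 1.77 above liver, whereas the lowest 4 tissues lay within 0.10 of each other. In kidney, Gatm ranked 410th among protein-coding genes (percentile 98.1). The genes with the nearest tissue profile were Slc26a4, Zpld1 and Sec14l3, whose centred profiles differed from that of Gatm by a root mean square of 0.45, 0.46 and 0.55 (log2) over 7 tissues. These genes had at most 0.036 FPKM in the 4 tissues where Gatm had 1.17 to 1.26. Their log2 levels there are set largely by the pseudocount, and so is the closeness.

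Gamt, which completes creatine, lies on chromosome 10 (80258151 to 80261012, minus strand). Its level was 44.6 FPKM in liver and 16.01 in VAT. It was 9.09 in skeletal muscle, 7.01 in BAT and 6.19 in kidney. Cortex had 3.26 FPKM and SCAT 1.52. Every tissue held at least 1 FPKM, and the distance of liver from VAT, 1.47 (log2), was below the 4-fold rule. Without the VAT library the next tissue was skeletal muscle, liver led by 2.28, and Gamt met the rule. Gamt in VAT stood at 35.9% of its liver level, beside 0.559 to 0.8504% for the hepatocyte markers in the same library; the part of the epididymis transcripts of that library in it was not tested. The nearest profiles were those of Xlr3a, Ccdc162 and Alas2, the erythroid enzyme that opens haem synthesis, at 0.49, 0.59 and 0.62.

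The enzymes of the pathway were therefore highest in different organs. Gatm was above Gamt in 2 of 7 tissues, by 4.02 (log2) in kidney and by 1.65 in cortex. In liver the order was turned, with Gatm minus Gamt at -3.86, and in VAT it was -3.66. The difference was -2.82 in skeletal muscle and -2.38 in BAT. In SCAT it was -0.35, and 0.059 with all loci of a name summed, so no order is read there. With the second highest locus of Gatm, the difference was 2.25 in kidney and 0.36 in cortex, and -5.10 in liver, -4.68 in VAT, -4.14 in skeletal muscle, -4.05 in BAT and -1.65 in SCAT. With a pseudocount of 1 it was -2.97 in VAT and -2.196 in skeletal muscle. Kidney minus liver was 5.05 for Gatm and -2.83 for Gamt, while the median over protein-coding genes was 0.01. Cortex, with the most Gatm after kidney, also held 3.26 FPKM of Gamt and 9.06 of the transporter. Kidney was higher than cortex for each of the 3 genes, and each of them reached 1 FPKM in all 7 tissues.

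Slc6a8, the creatine transporter, lies on the X chromosome (73673150 to 73682502, plus strand). It had 48.3 FPKM in skeletal muscle and 34.1 in kidney, a distance of 0.50 (log2). Cortex followed with 9.06 FPKM and BAT with 7.45. VAT had 3.56, liver 2.203 and SCAT 1.89. No tissue lacked it, and muscle and kidney were set apart from the rest by 1.90 (log2), the step from kidney to cortex. Liver, the tissue with the most Gamt, ranked 6th of 7 for the transporter. Kidney held 14.9-fold more Slc6a8 than liver on the log2(FPKM + 0.1) scale. The nearest profiles were those of Cystm1, Prima1 and Rcan1, at 0.54, 0.54 and 0.60.

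**Figure D2:**
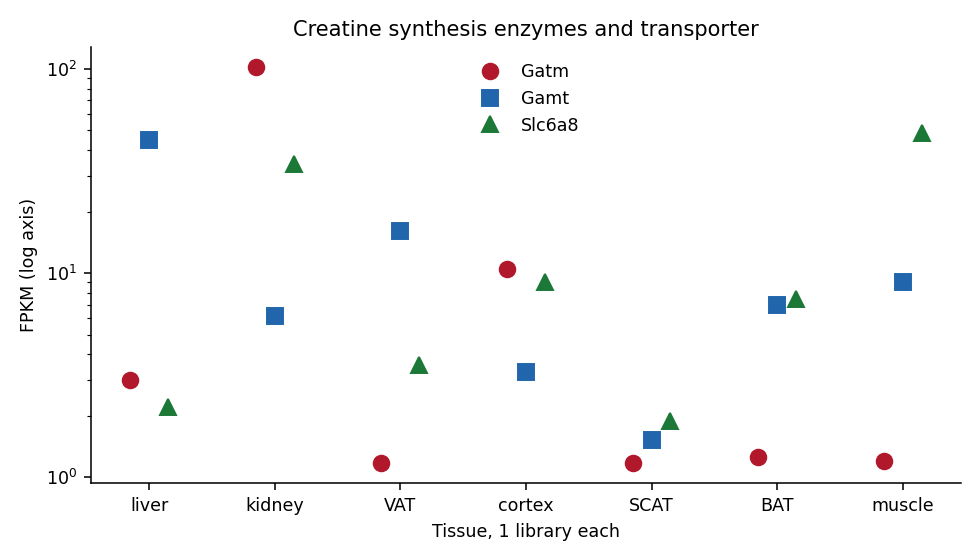
FPKM of Gatm, Gamt and Slc6a8 in the library of each tissue, on a log axis. Kidney has the highest Gatm (101.8), liver the highest Gamt (44.6) and skeletal muscle the highest Slc6a8 (48.3), with kidney next (34.1).

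Ckm, the cytosolic kinase of striated muscle that is also bound at the M line of the sarcomere, lies on chromosome 7 (19404776 to 19422841, plus strand). In skeletal muscle it had 8592 FPKM, the 4th highest value of any protein-coding gene there. BAT had 166.0 FPKM, VAT 9.86 and SCAT 1.70. Kidney had 0.078 and cortex 0.073. Muscle stood 5.69 (log2) above BAT, and 15.6 above cortex, the widest range of the 7 members. Liver has no usable value: the table lists Ckm there at 0 with the status LOWDATA in all 6 of its comparisons. The 0 is shared by all 32 loci of the merged locus group that holds Ckm, Apoe and Apoc1 among them, genes of secreted lipoproteins that liver makes in quantity, so it was treated as missing and not as absence. The nearest profiles over the other 6 tissues were those of Tnni2, Tnnc2 and Myl1, parts of the fast fibre's contractile apparatus, at 0.36, 0.47 and 0.64.

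Ckmt2, the sarcomeric mitochondrial kinase, lies on chromosome 13 (91853387 to 91876885, minus strand). It had 825.5 FPKM in skeletal muscle and 27.1 in BAT. VAT had 0.604, SCAT 0.129 and cortex 0.093. Kidney had 0.034 and liver 0.012. Only skeletal muscle and BAT reached 1 FPKM, and muscle stood 4.92 (log2) above BAT. The nearest profiles were those of Myot, Myh2 and Myoz1, genes of the Z disc and of a fast myosin, at 0.26, 0.40 and 0.42. Ckm and Ckmt2 had the same order of tissues down to SCAT, and their log2 levels correlated with r = 0.97 over the 6 tissues where both have a value, points that come from the same libraries.

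The level of both muscle kinases in fat was set beside skeletal muscle markers in the same libraries. In BAT, Ckm stood at 1.93% of its muscle level and Ckmt2 at 3.28%. The markers Mylpf, Tnnt3, Tnni2, Myh1 and Atp2a1 stood there at 1.02% (Myh1) to 3.13% (Tnnt3), with a median of 1.68%. Ckm thus lay within the span of the markers, and Ckmt2 lay just above its upper end. In VAT the markers had 0.114 to 0.295% of the muscle level, with Ckm at 0.115% and Ckmt2 at 0.073%. In SCAT they had 0.015 to 0.716%, with Ckm at 0.020% and Ckmt2 at 0.016%. Ckm lay within the span of the markers in each of the 3 depots, at its lower end in VAT. Tnnt3 had a higher percent in SCAT than in VAT, whereas Ckm and the other 4 markers had a lower one. The part of muscle RNA in the level of Ckm and Ckmt2 in fat was not tested. Slc6a8 differed, at 15.4% of its muscle level in BAT, 7.36% in VAT and 3.91% in SCAT. Without the BAT library, Ckm led by 9.75 and Ckmt2 by 10.20 over VAT, and both were still enriched in skeletal muscle.

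**Figure D3:**
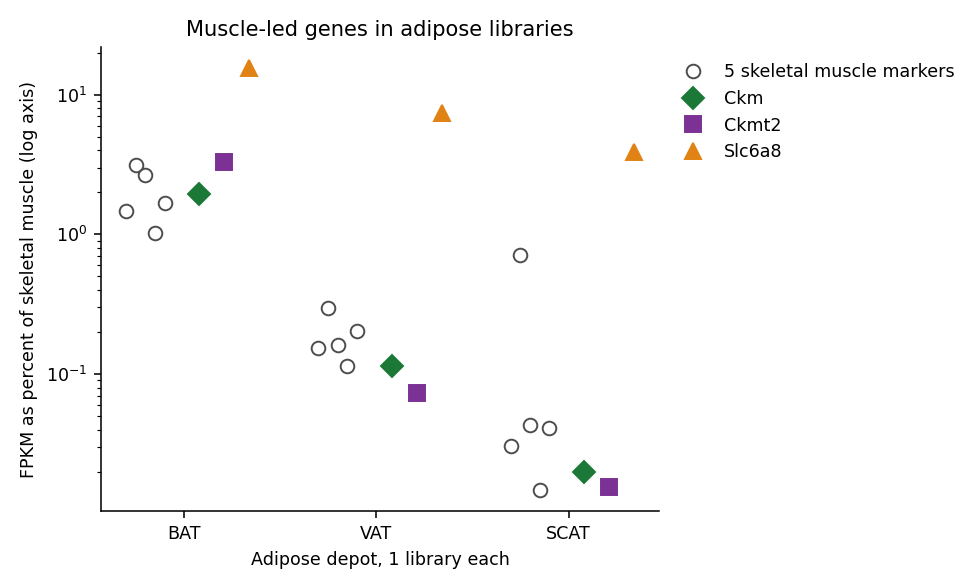
Level of muscle-led genes in the BAT, VAT and SCAT libraries as a percent of their FPKM in skeletal muscle, on a log axis. Open circles are the 5 skeletal muscle markers; Ckm lies within their span in each depot, Ckmt2 lies just above it in BAT (3.28%) and below it in VAT (0.073%), and Slc6a8 lies above it in all 3.

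Ckb, the cytosolic kinase known from brain, lies on chromosome 12 (111669361 to 111672338, minus strand). It had 154.6 FPKM in cortex and 14.6 in kidney. BAT had 9.81, VAT 8.94 and SCAT 3.23. Skeletal muscle had 2.75 and liver 1.85. Unlike Ckm and the mitochondrial kinases, it reached 1 FPKM in every tissue. Cortex stood 3.397 (log2) above kidney and Ckb ranked 88th there among protein-coding genes. Its nearest profiles were those of Tmem35a, Fjx1 and Fzd3, at 0.41, 0.45 and 0.49.

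In fat, Ckb in BAT was 0.13 (log2) above VAT and 1.57 above SCAT, while the median protein-coding gene was 0.33 and 0.42 above. The 4-fold distance to both white depots was reached by 7.34% of genes, and Ckb did not reach it. Its small lead over VAT turned to -0.32 when the libraries were scaled by their median ratio, and its lead over SCAT was then 0.99. Ckm was 4.06 above VAT and 6.53 above SCAT in BAT, and Ckmt2 5.27 and 6.89, with the marker values above. Alpl, an alkaline phosphatase reported to split phosphocreatine in thermogenic fat, had 9.65 FPKM in BAT, 2.41 in VAT and 0.627 in SCAT, and 78.1 in kidney, where it was enriched.

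Ckmt1, the ubiquitous mitochondrial kinase, lies on chromosome 2 (121357714 to 121363737, plus strand). It had 44.3 FPKM in cortex and 9.05 in kidney. VAT had 0.315, SCAT 0.053 and BAT 0.036. Liver had 0.013, and skeletal muscle was listed at 0. Cortex and kidney were thus the only tissues above 1 FPKM, with a distance of 2.28 (log2) between them. In kidney it was 6.34 above liver, a size that depends on the pseudocount because the liver level was near 0. Its nearest profiles, Vstm2a, Mpped1 and Fam81a, were less close than those of the other members, at 0.70, 0.77 and 0.79. Ckb and Ckmt1 shared their top pair of tissues, and their log2 levels correlated with r = 0.90 over 7 tissues.

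Within each tissue, the kinases could be set against each other because FPKM is per length. Ckm was above Ckb by 11.56 (log2) in skeletal muscle and by 4.07 in BAT, and above it by 0.14 in VAT. Ckm minus Ckb was -0.89 in SCAT, -6.37 in kidney and -9.81 in cortex. With a pseudocount of 1 or 0.01 it was -3.85 or -7.37 in kidney and -7.18 or -10.87 in cortex. The second locus of Ckb never exceeded 0.261 FPKM. With it, Ckm minus Ckb was -0.67 in kidney, -0.55 in cortex and 2.32 in SCAT. It was then 5.06 in VAT, 9.33 in BAT and 14.84 in skeletal muscle. Ckmt2 was above Ckmt1 by 13.01 in skeletal muscle, 7.64 in BAT, 0.76 in VAT and 0.58 in SCAT. The sizes depend on the pseudocount, since the lower gene is near 0: with 1 or 0.01 in place of 0.1, the difference was 9.69 or 16.33 in skeletal muscle and 4.76 or 9.20 in BAT. In VAT it was 1.91 with all loci of a name summed. In kidney and cortex Ckmt1 was the higher, with Ckmt2 minus Ckmt1 at -6.09 (-3.28 or -7.68 with the other pseudocounts) and -7.85 (-5.37 or -8.75). In liver both were under 0.02 FPKM and differed by 0.01. Skeletal muscle, BAT and VAT had Ckm and Ckmt2 as the higher of each pair, by little in VAT, and kidney and cortex had Ckb and Ckmt1, whereas SCAT had Ckb and Ckmt2.

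The sum of the 4 kinases ran from 1.87 FPKM in liver, where Ckm is missing, to 9420 in skeletal muscle. It was 5.12 in SCAT, 19.7 in VAT and 23.8 in kidney. Cortex (199) and BAT (203) had nearly the same sum from different genes. In cortex, Ckb held 77.7% of it and Ckmt1 22.2%. In BAT, Ckm held 81.8%, Ckmt2 13.3% and Ckb 4.84%, in a library where skeletal muscle markers stood at 1.02 to 3.13% of their muscle level, Ckm at 1.93% and Ckmt2 at 3.28%. Skeletal muscle was 91.2% Ckm and 8.76% Ckmt2, with Ckb at 0.029%. Kidney resembled cortex, at 61.4% Ckb and 38.1% Ckmt1, with the larger mitochondrial share of the pair. VAT was split between Ckm (50.0%) and Ckb (45.4%), and SCAT between Ckb (63.2%) and Ckm (33.2%). Ckb was the leading kinase in 4 of 7 tissues, kidney, cortex, SCAT and, among the 3 kinases with a value there, liver.

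**Figure D4:**
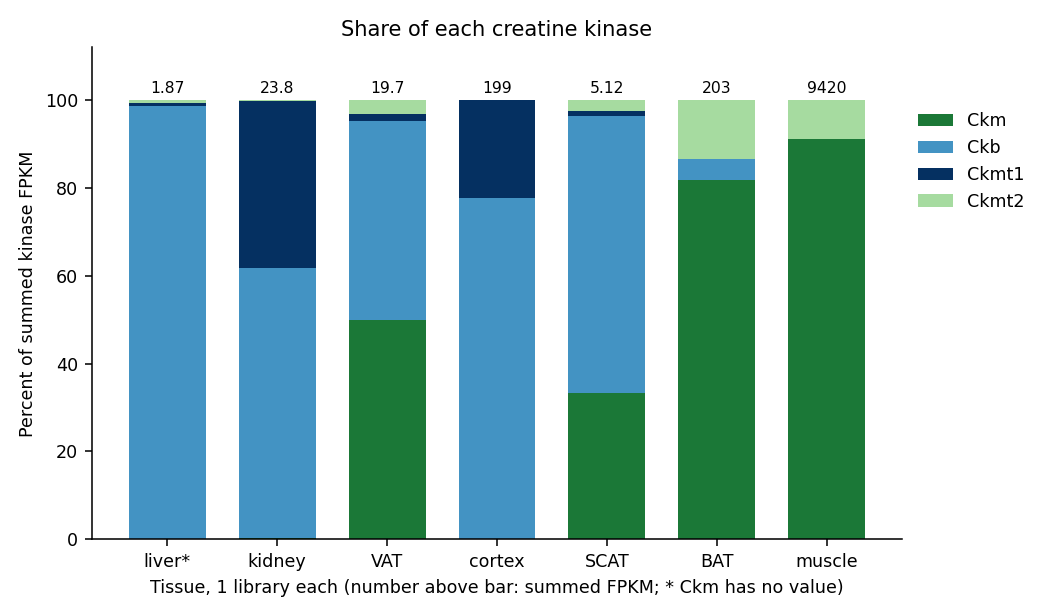
Percent of the summed FPKM of Ckm, Ckb, Ckmt1 and Ckmt2 held by each kinase, 1 bar for the library of each tissue, with the summed FPKM above the bar. Ckb and Ckmt1 fill the bars of kidney and cortex, Ckm and Ckmt2 those of BAT and skeletal muscle, and in liver Ckm has no value.

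The genes around creatine were read from a list of 28, all found in the table. Of these, 13 (46.4%) were enriched in 1 tissue, 5 in liver, 3 in kidney and 5 in skeletal muscle, against 21.4% of all genes tested in any tissue, 3.39% in liver, 2.49% in kidney and 3.38% in skeletal muscle. The median distance of the highest tissue from the next was 1.84 (log2). The list was written with earlier results of these data known and holds genes named for their role in certain organs, so its share is a description.

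Of 8 genes of methyl supply and use, 5 were enriched in liver, the tissue with the most Gamt. Liver had 764.3 FPKM of Mat1a, which makes S-adenosylmethionine, 471.1 of Ahcy, which clears its spent form, 422.7 of Gnmt, which methylates glycine, and 1115 of Bhmt, which remakes methionine. Pemt, which methylates phosphatidylethanolamine, had 143.1 FPKM there, and these 5 genes were each enriched in liver. Nnmt, which methylates nicotinamide, had 20.5 FPKM in liver and 8.44 in VAT and was not enriched. Mat2a, highest in kidney, and Mat2b, highest in skeletal muscle, which supply S-adenosylmethionine outside the liver, had 19.9 to 75.6 FPKM and 10.7 to 35.7 FPKM over the 7 tissues, without a 4-fold lead. The 4 enzymes that supply arginine and glycine were highest in liver. Ass1 had 867.1 FPKM in liver and 485.4 in kidney, and Asl 215.2 and 65.8. Shmt1 had 115.4 in liver and 31.3 in BAT, its next tissue, and Shmt2 had 41.3 in liver and 35.3 in kidney. None of these suppliers (Ass1, Asl, Shmt1 and Shmt2) was enriched in 1 tissue.

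Among carriers, Slc22a2 and Slc47a1, which move creatinine among other cations in the renal tubule, were enriched in kidney at 75.5 and 142.8 FPKM. Slc16a12, a carrier reported to export creatine, had 9.35 FPKM in liver and 7.94 in kidney, the organs with the most Gamt and Gatm, and at most 1.12 elsewhere. Slc6a6, the related taurine transporter, had 53.0 FPKM in kidney and 44.5 in BAT, without a 4-fold lead.

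Of 6 enzymes that handle adenine nucleotides, Ak1 and Ampd1 were enriched in skeletal muscle. Ak1, the cytosolic adenylate kinase, had 222.5 FPKM there and 12.4 in BAT, and Ampd1, the muscle AMP deaminase, had 490.3 and 7.64. Ak3 was highest in liver (46.1 FPKM, 18.4 in skeletal muscle) and Ak4 in kidney (48.0 FPKM, 0.380 in skeletal muscle), and Ampd2 and Ampd3 had 0.834 to 4.43 FPKM over the 7 tissues. Slc25a4, the muscle form of the ADP/ATP carrier that couples to mitochondrial creatine kinase, had 1196 FPKM in skeletal muscle, 118.0 in BAT and 72.6 in cortex. Slc25a5, the other ADP/ATP carrier of the list, had 16.4 FPKM in skeletal muscle, its lowest tissue, and 193.0 in kidney, its highest. The M line proteins Myom1 and Myom2 had 394.6 and 437.2 FPKM. As a percent of the muscle level, Myom1 (2.62%), Myom2 (2.37%) and Ampd1 (1.56%) lay in BAT within the span of the muscle markers, and Ak1 (5.59%), Slc25a4 (9.86%) and Vdac1 (24.3%), the outer membrane channel, lay above it. In VAT, Ampd1 (0.117%) lay within the span there, and Myom1 (0.392%), Ak1 (0.612%), Myom2 (0.888%), Slc25a4 (1.91%) and Vdac1 (5.11%) lay above it. In SCAT, where Tnnt3 widens the span, Myom2 (0.033%), Ampd1 (0.082%), Myom1 (0.114%) and Ak1 (0.172%) lay within it, and Slc25a4 (1.03%) and Vdac1 (2.64%) above.

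**Figure D5:**
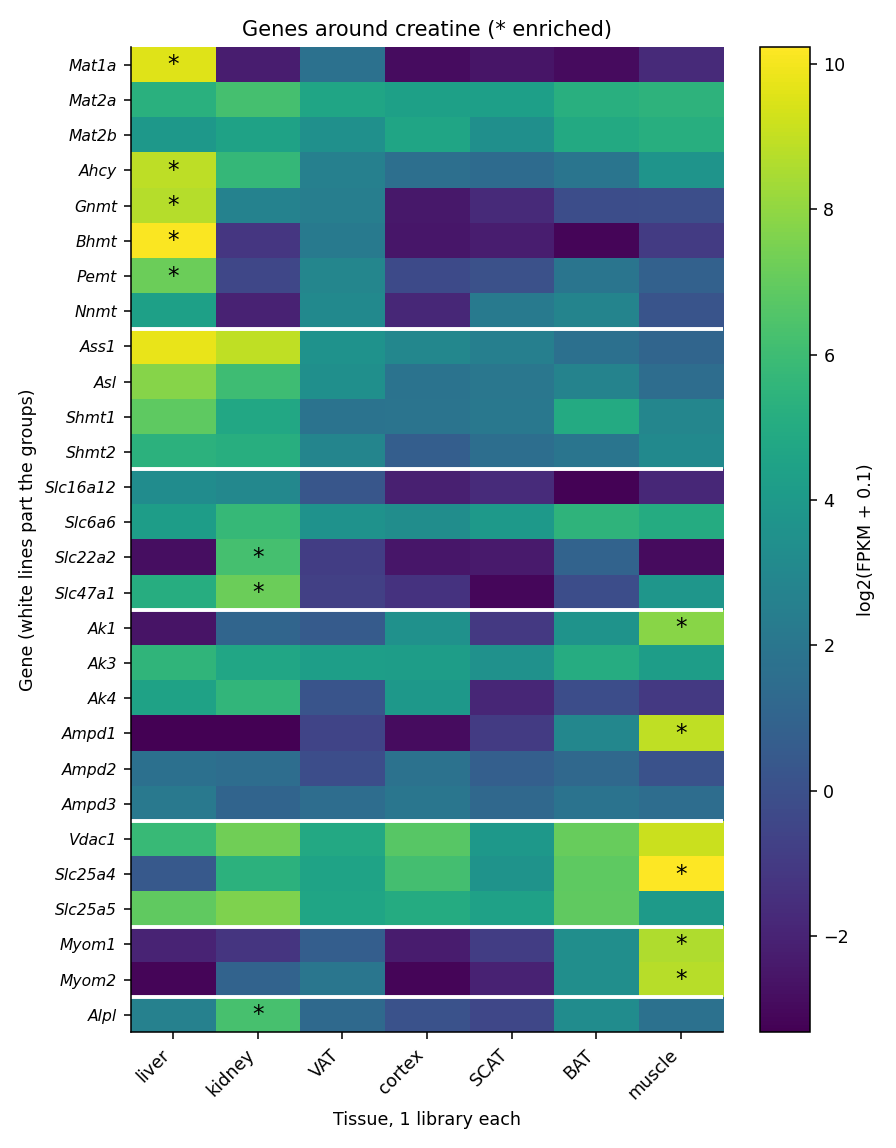
Level of the 28 genes around creatine in the library of each tissue, as log2(FPKM + 0.1), ordered by group, with white lines between groups. Stars mark the 13 genes enriched in a tissue, 5 in liver, 3 in kidney and 5 in skeletal muscle.

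Sequence shared with other genes could move reads between loci. No window of 101 bases, the length of a read, in the transcripts of Gatm, Gamt, Slc6a8, Ckmt1 or Ckmt2 occurred in a transcript of another gene, and the longest run shared by a pair of the 4 kinases was 39 bases (Ckmt1 and Ckmt2). Of the windows of Ckb, 10.9% also occurred in Gm12892, a processed pseudogene on chromosome 4 (122008193 to 122009338), annotated on the plus strand. Its plus-strand locus had 0.021 FPKM in cortex and 0 elsewhere, and a minus-strand locus under its name had 6.62 FPKM in cortex, 4.28% of Ckb there, and 0.064 to 0.788 FPKM in the other tissues. Of the windows of Ckm, 14.3% occurred in A930016O22Rik, an annotated antisense RNA that overlaps it on chromosome 7 (19417466 to 19421417). The value used for each of the 7 genes came from the locus on its annotated strand, read from the order of loci in the table.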

How the data were processed

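Total RNA from the 7 tissues was depleted of ribosomal RNA and made into stranded libraries, read as pairs of 101 bases. According to the study's methods and the submitters' processing notes, the authors trimmed reads with flexbar, filtered ribosomal reads with Bowtie2 2.2.9, aligned the rest to GRCm38 with STAR 2.6.0c and ran cufflinks, cuffmerge and cuffdiff (2.2.1). The authors deposited cuffdiff's values as FPKM for 94339 loci in 21 comparisons, each tissue having the same FPKM in its 6 comparisons. The deposited log2 ratios, test scores and p-values are the authors' own comparisons and were not used. Depth is unknown because the table gives no fragment counts.

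The members and lists were chosen with earlier results of these data known. A gene took the locus with the highest FPKM, 151 loci with the status FAIL were dropped, and a 0 with LOWDATA in all 6 comparisons of a tissue (83 loci) was treated as missing. Values were compared as log2(FPKM + 0.1). Protein-coding names were taken from GENCODE M21, which held 91.9% of the 50354 names. The genes named are the 7 members, the pathway list, for each member the 3 protein-coding genes of nearest profile (the smallest root mean square difference of centred log2 profiles), and markers that move with a member. Apoe, Apoc1, Mark4, Gm12892 and A930016O22Rik were added after their values were seen. One gene first written in the pathway list is not reported here, and the list and its counts are given without it. One muscle marker of the list, Acta1, was not found under the rule, and Myh4 in skeletal muscle and Alb in liver are missing by the LOWDATA rule. RefSeq promoter sequences (GRCm38.p6) were matched by symbol for 6 of the 7 members. Alternatives covered the pseudocount, locus choice, LOWDATA zeros, scaling, fold, minimum, tau and single libraries. They were not applied to the nearest profiles. Python 3.11.15, pandas 2.3.3, NumPy 2.4.6 and matplotlib 3.10.9 were used.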

Additional observations from a re-analysis of the deposited data

How the results depend on the processing

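With 1 library per tissue, no test or replicate spread could be used, so a log2 difference was counted as moved when it changed by more than 1.5-fold, and a count when it changed by more than 1.5 times. Of 53 recomputed main results, 48 stayed within these bounds in the same direction, counts that changed by less among them (Gatm above Gamt in 3 tissues with summed loci, Ckm above Ckb in 4 with the second locus, 18 genes of the pathway list at 2-fold, which 38.5% of protein-coding genes passed). Of 190 recomputed values of single genes or tissues, 34 moved and 3 turned. Some of these recomputed results could not change. Among the members, taking LOWDATA zeros as 0 touches only Ckm in liver, which has no main value. A pseudocount cannot change which gene of a pair is higher. SCAT was never the highest or next tissue of a member, so its removal left every lead as it was. The counts of unchanged results therefore do not measure how firm the results are. With the second highest locus of a name, the median lead of the members was 2.28 in place of 3.28. Gamt, Ckm and Ckmt1 have 1 locus each and entered unchanged, and 2.28 is the lead of Ckmt1 in both settings. Ckb in BAT was then -0.21 against VAT and -0.49 against SCAT, from a Ckb locus that never exceeded 0.261 FPKM. The lead of Ckb in cortex was then -0.52 and Ckm minus Ckb in SCAT 2.32. Median ratio scaling turned Ckb in BAT against VAT to -0.32. The sum of all loci turned Gatm minus Gamt in SCAT to 0.059, from -0.35. By a tau of at least 0.85, 0 members were enriched in place of 5, and 8.53% of protein-coding genes passed it; the highest member, Ckmt2, had a tau of 0.825. The count of members was 4 to 6 under the other alternatives, with 4 from the second locus (20.4% of protein-coding genes) and 6 at 2-fold (38.5%) and without the VAT library (22.4%), where Gamt was added. The alternative without the BAT library was chosen after seeing the data. No paired analysis was possible because each tissue has 1 library and no result comes from a test.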

Other observations

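A further locus was listed under the name of 4 of the 7 members. For Gatm, Slc6a8 and Ckmt2 it lay on the other strand than the gene. Over the 7 tissues it had 26.1 to 44.96% of the used level for Gatm and 31.9 to 51.8% for Slc6a8. For Ckmt2 the opposite locus had 355.5 FPKM in skeletal muscle and 10.3 in BAT, 43.1% and 37.99% of the used locus, and 0.8505 FPKM in VAT, where it was above the used locus at 0.604. Opposite Ckm, a locus named Mark4, after a kinase gene that neighbours Ckm, had 1778 FPKM in skeletal muscle, 20.7% of Ckm, and 31.2 in BAT, 18.8% of Ckm, beside 1.29 to 2.45 FPKM in kidney, VAT, cortex and SCAT. The libraries were prepared with a kit that marks strand, and cuffdiff's setting for it is not given in the sources used here, so the origin of these opposite-strand values was not tested.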
